A study of Danio rerio with 4 samples.

Results

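Mitosis and spindle genes encode the machinery that condenses, attaches and separates chromosomes and then divides the cell. A list of 60 such gene names was looked up in the gene table of a zebrafish RNA sequencing experiment, and a name with or without the letter a or b that separates zebrafish gene copies was counted. Of these names, 58 had a row and 2 (*incenp* and *cenpa*) were not matched to a row and were not analysed here. Since some names have several copies, the list came to 62 rows of the 32520 genes in the table, and 61 of them could be tested.

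RNA was sequenced from whole larvae at 8 days post fertilization (dpf), in 2 libraries of *grwd1* crispants and 2 libraries of wildtype (wt) larvae. Crispants are the injected fish themselves: they received 100 pg of each of 2 guide RNAs against *grwd1* and 150 pg of Cas9 mRNA as single-cell embryos. They are therefore mosaic, and edited and unedited cells share a pool. The wt larvae were not edited, and the labels name no control injection for them. Each group is described as a pool of 15 larvae, and nothing says that its libraries came from separate pools. The spread behind the p-values is that between libraries and may be purely technical. Human GRWD1 is a factor of large ribosomal subunit assembly, and the comparison asks which transcripts change in larvae that carry such edits.

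In a dividing cell, cyclin-dependent kinase 1 with A- and B-type cyclins drives entry into mitosis, condensin folds the chromosomes, and kinesins build the spindle. Kinetochores attach chromosomes to spindle microtubules, the spindle checkpoint holds the cell until all are attached, and the anaphase-promoting complex then triggers separation. Most of these genes are transcribed mainly late in the cell cycle, so that in a whole animal their mRNAs come largely from cells that are dividing, as in the epidermis, the gut, the brain and the retinal margin of a larva. In mammalian cells, the kinase inhibitor p21 lowers many of them through the DREAM complex, a repressor of late cell cycle genes.

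The deposited counts summed to 15916216 to 18619802 per library, and the depths of the groups overlapped. Counts were scaled to a common library size, as CPM, with TMM factors, which correct for composition, and tested with the quasi-likelihood test of edgeR. Fold changes are crispants over wt, and a gene passed at an adjusted p of 0.05 or less over all 20479 genes tested. *grwd1* had 6.40 and 6.33 CPM in the crispant libraries, against 25.0 and 24.1 CPM in the wt libraries; its level was low where the labels give an edit. Markers of enterocytes, epidermis, photoreceptors, muscle progenitors and blood were all detected. Erythroid markers were scarce, with sums of 11.6 and 14.4 CPM in crispants and 15.3 and 14.6 CPM in wt, and 2 of their 8 names were unmatched. The spread within each group exceeded counting noise: chi-square over its degrees of freedom was 5.00 between the crispant libraries and 4.47 between the wt libraries.

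Of the 61 rows tested, 24 rose, 1 fell and 36 did not pass, and 60 of the 61 had a log2 fold change above 0. Across all genes tested, 8.98% rose (1839 genes), 7.44% fell (1524 genes) and 50.5% had a log2 fold change above 0. The list was chosen with earlier results of these data known, so such comparisons with all genes are descriptive. With library totals as the only scaling, 2355 genes rose and 1005 fell, and 25 members rose and 1 fell. The median log2 fold change of the list was 0.79, against 0.0046 over all genes tested. A log2 fold change of at least 0.5 was reached by 49 members and one of at least 1 by 18 members, compared with 16% and 5.21% of all genes. Both crispant libraries lay above both wt libraries for 51 members (83.6%) and below them for 1, whereas 28.1% of all genes had both crispant libraries on top and 26.5% had both below.

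The 1 member that fell, a *stmn1* copy, held more reads than all other members together, and sums over the list are therefore given without it. Over the other 60 tested rows, the summed level was 389 and 384 CPM in the crispant libraries, against 209 and 224 CPM in the wt libraries. The difference, 1.79-fold, was far wider than the spread within either group. In each of the 4 pairings of a crispant with a wt library, 55 to 58 of the 60 rows were higher in the crispant library. Between the crispant libraries, 30 rows were higher in replicate 1 and 30 in replicate 2, and between the wt libraries 26 were higher in replicate 1 and 34 in replicate 2. In bulk RNA, a different number of dividing cells and a different amount of these mRNAs per cell cannot be told apart.

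**Figure D1:**
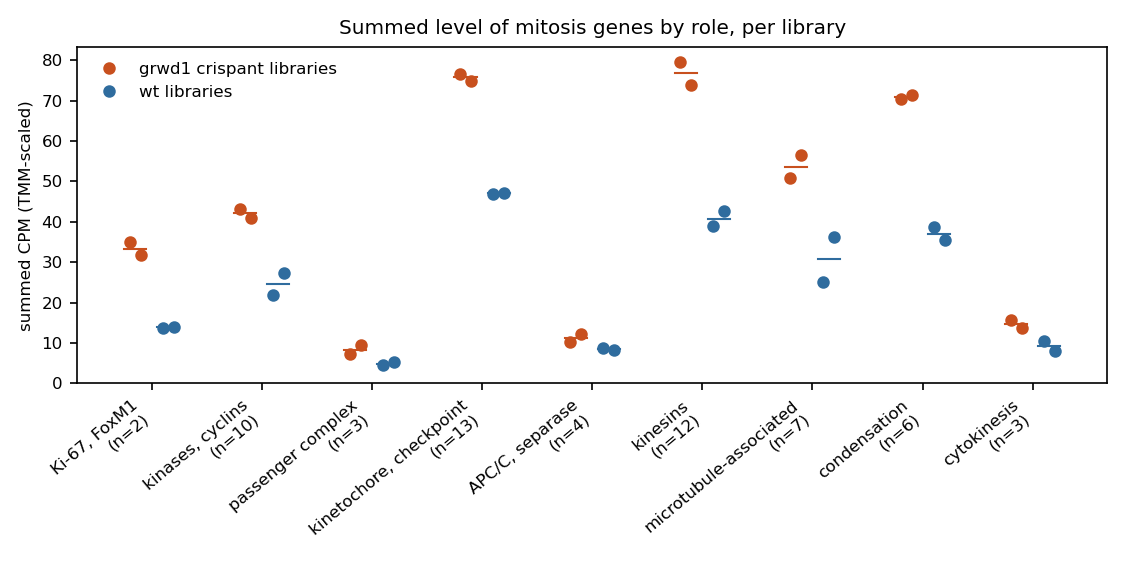
Summed CPM of the mitosis genes by role (vertical axis, TMM-scaled) in each library, without the abundant *stmn1* copy; points are libraries, with crispants left of wt, and lines are group means. In each of the 9 roles both crispant points lie above both wt points, with the narrowest gap for the anaphase-promoting complex and separase group (10.3 and 12.1 CPM in crispants, 8.70 and 8.23 CPM in wt).

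Most of these mRNAs were scarce. Without the abundant copy, the median member had 92 and 74 counts in the crispant libraries and 41.5 and 53 counts in the wt libraries. Among members at or above the median level of 3.77 CPM, 16 of 31 rose, and among those below it 8 of 30 rose. Of all genes tested, at any level, 8.98% rose. The median log2 fold changes of both parts were nonetheless alike at 0.77 and 0.79. The standard error had a median of 0.25 in the upper part and 0.45 in the lower part. The 36 members that did not pass all had values above 0, with a median of 0.67 and a range of 0.02 to 1.40. Of the 61 rows, 4 (*bub1bb*, *spc24*, *kif18a* and *ncaph*) got through the low-count filter only by their crispant libraries; without the filter the same 61 rows were tested and 24 rose. The row that could not be tested was *birc5b*, a survivin copy, with 0 counts in every library, which allows a level of up to 0.156 to 0.192 CPM, depending on the library.

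**Figure D2:**
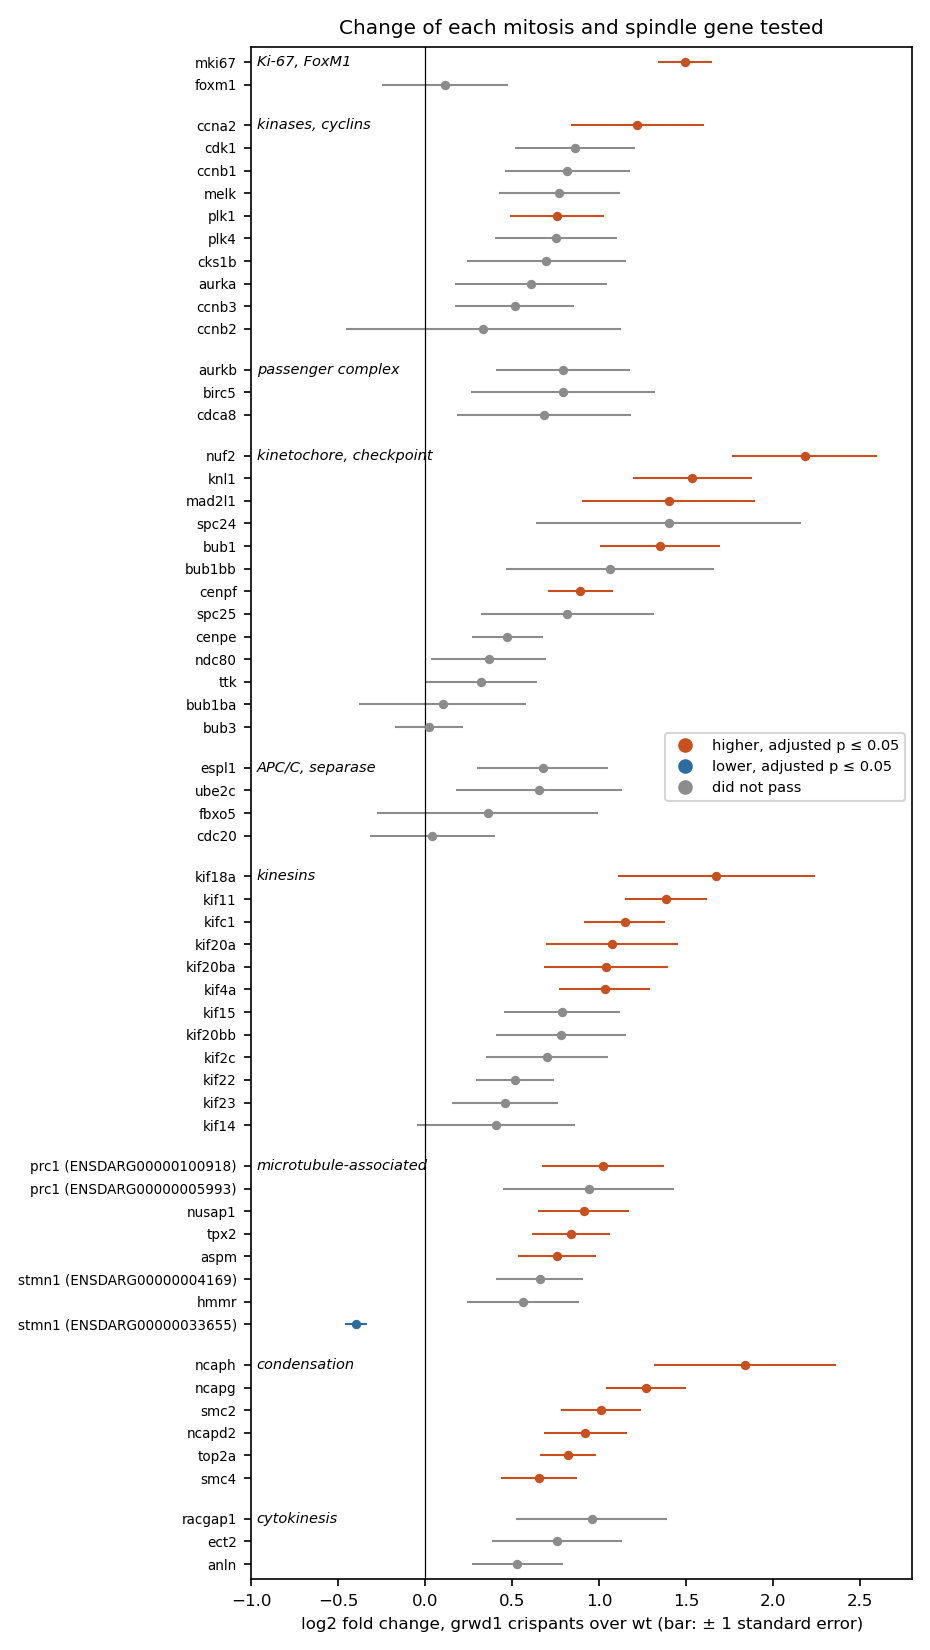
Log2 fold change of each of the 61 mitosis and spindle genes tested, crispants over wt, grouped by role; bars are 1 standard error to each side. All points but the abundant *stmn1* copy (-0.40) lie right of 0, from 0.02 for *bub3* to 2.18 for *nuf2*.

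*mki67*, which encodes the Ki-67 antigen that coats mitotic chromosomes and marks cycling cells, had the smallest p of the list. The crispant libraries held 32.1 and 27.5 CPM of *mki67*, against 10.4 and 10.8 CPM in the wt libraries. It rose 2.82-fold, with a 95% interval of 2.27 to 3.49 (1.49 on the log2 scale, standard error 0.15, adjusted p = 3.51e-12 from edgeR). It made up 7.71% of the summed member level in crispants and 4.89% in wt, so the list does not rest on it. *foxm1*, the transcription factor that activates many late cell cycle genes, had 2.86 and 4.22 CPM in crispants and 3.33 and 3.18 CPM in wt. Its groups overlapped and it did not pass (log2 fold change 0.12, standard error 0.36), with a 95% interval of 0.655-fold to 1.79-fold that takes in both a fall and a rise. Without crispant replicate 2 its value was -0.19.

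**Figure D3:**
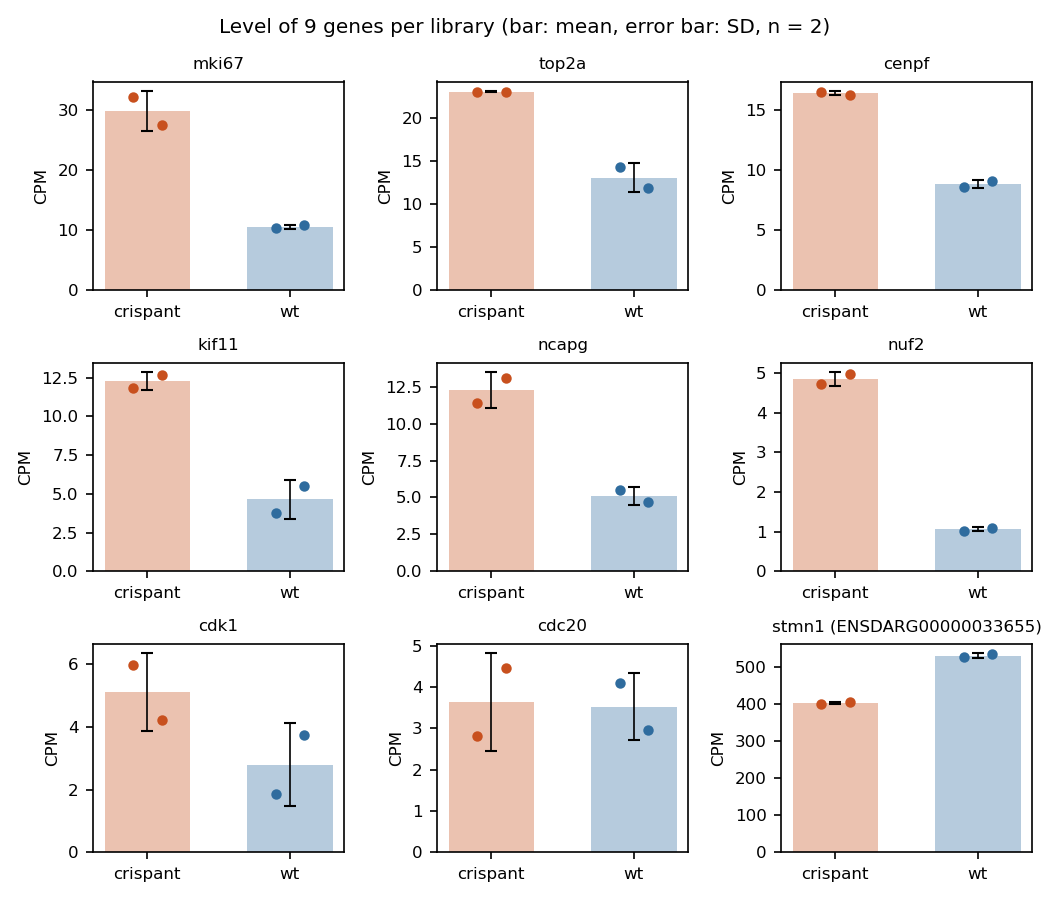
CPM of 9 genes in each library (points), with bars for the group mean and error bars for the SD (n = 2), crispants left of wt. *mki67*, *top2a*, *cenpf*, *kif11*, *ncapg* and *nuf2* separate the groups without overlap, *cdk1* does so by a small margin, *cdc20* overlaps, and the *stmn1* copy is lower in crispants (400 and 405 CPM, against 526 and 535 CPM in wt).

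Genes of chromosome condensation rose without exception: 6 of 6 passed, with a median log2 fold change of 0.97, where 8.98% of all genes rose. Of these 6, *ncaph* got through the low-count filter only by its crispant libraries. *top2a*, the DNA topoisomerase that untangles sister chromatids, had 23.1 and 23.1 CPM in crispants, against 14.3 and 11.9 CPM in wt. It rose by 0.82 on the log2 scale (standard error 0.16, adjusted p = 6.13e-05 from edgeR). The other 5 encode the whole of condensin I, the ring that compacts chromosomes in mitosis, namely its SMC subunits *smc2* (1.01) and *smc4* (0.66) and its other subunits *ncapd2* (0.92), *ncapg* (1.27) and *ncaph* (1.84). The crispant libraries held 11.4 and 13.1 CPM of *ncapg*, against 5.50 and 4.66 CPM in wt. For *smc2* the values were 10.3 and 12.4 CPM in crispants and 5.70 and 5.54 CPM in wt. Each of the 6 genes had both crispant libraries above both wt libraries, as did 28.1% of all genes tested. The calls of *top2a*, *ncapg* and *smc2* held under all 13 alternatives. In edgeR, that of *ncaph* was lost without wt replicate 2 (1.38, adjusted p = 0.126) and crispant replicate 2 (1.46, adjusted p = 0.200), and that of *ncapd2* without crispant replicate 1 (0.83, adjusted p = 0.0506). The call of *smc4* was lost in edgeR without wt replicate 1 (0.63, adjusted p = 0.117), wt replicate 2 (0.68, 0.0831) or crispant replicate 1 (0.45, 0.328).

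Among kinetochore and spindle checkpoint genes, 5 of 13 rose, none fell and 8 did not pass, with a median of 0.89. Across all genes tested, 8.98% rose and 7.44% fell. *nuf2*, a subunit of the Ndc80 complex that grips microtubules, changed most of all members. It had 91 and 80 counts (4.73 and 4.97 CPM) in the crispant libraries, against 16 and 20 counts in the wt libraries. The rise was 4.54-fold, with a 95% interval of 2.55 to 8.08 (log2 fold change 2.18, standard error 0.42, adjusted p = 4.65e-05 from edgeR). Its partners in the complex, *spc24* (1.40), *spc25* (0.82) and *ndc80* (0.37), did not pass, and *spc24* had only 25 and 12 counts in crispants and 7 and 6 counts in wt. *knl1*, the scaffold on which checkpoint kinases gather, rose by 1.54, with 6.76 and 5.59 CPM in crispants, against 1.47 and 2.74 CPM in wt. *cenpf*, a large kinetochore protein made in G2, had 16.5 and 16.3 CPM in crispants, against 8.58 and 9.05 CPM in wt, and rose by 0.89. *cenpe*, the kinetochore kinesin, had a log2 fold change of 0.47 and did not pass (adjusted p = 0.107 from edgeR).

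The spindle checkpoint itself was uneven. *bub1*, a checkpoint kinase, rose by 1.35 (5.15 and 6.02 CPM in crispants, 2.11 and 2.25 CPM in wt), and *mad2l1*, the inhibitor of the anaphase-promoting complex, by 1.40 (3.07 and 2.61 CPM in crispants, 1.28 and 0.878 CPM in wt). *bub3*, the partner of the Bub kinases and also a factor of interphase cells, had 10.3 and 12.7 CPM in crispants and 12.3 and 10.4 CPM in wt. Its groups overlapped, with a log2 fold change of 0.02 and a 95% interval of 0.773-fold to 1.33-fold. *ttk*, the Mps1 kinase, stood at 0.32 and the BubR1 copies *bub1bb* and *bub1ba* at 1.06 and 0.10, and none of the 3 passed. *bub1ba* had 49 and 18 counts in the wt libraries, the widest split by ratio of any wt pair among the 13 kinetochore and checkpoint members, and its value was -0.52 without wt replicate 2 and -0.18 without crispant replicate 1. *bub3* was at -0.098 without wt replicate 2 and -0.13 without crispant replicate 2. The call of *mad2l1* was lost in edgeR when any 1 library was left out (values 1.15 to 1.69, adjusted p = 0.0681 to 0.236).

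Kinesins are motors that slide spindle microtubules and carry chromosomes. While 8.98% of all genes rose, 6 of the 12 kinesin rows rose, with a median of 0.91, and none fell. Of these 6, *kif18a* got through the low-count filter only by its crispant libraries. *kif11*, the motor that pushes spindle poles apart, had 11.9 and 12.7 CPM in crispants, against 3.78 and 5.54 CPM in wt. It rose by 1.39 (standard error 0.23, adjusted p = 4.59e-06 from edgeR). *kifc1*, a motor of the opposite direction that focuses the poles, had 10.5 and 12.6 CPM in crispants and 5.95 and 4.50 CPM in wt, a rise of 1.15. Both calls held under all 13 alternatives. The chromosome-bound motor listed as *kif4a* rose by 1.03, *kif18a*, which dampens chromosome movement, by 1.67, and *kif20a* and *kif20ba*, motors of late mitosis and cytokinesis, by 1.07 and 1.04. The remaining rows, *kif15* (0.79), *kif20bb* (0.78), *kif2c* (0.70), *kif22* (0.52), *kif23* (0.46) and *kif14* (0.41), did not pass, and the libraries overlapped for *kif20bb*, *kif23* and *kif14*.

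Several of these kinesin calls changed when 1 library was left out. That leaves 1 library in its group, so a lost call need not mean a smaller change. Without wt replicate 1, edgeR gave adjusted p = 0.0795 for *kif4a* (value 0.78), 0.277 for *kif20a* (0.77) and 0.230 for *kif20ba* (0.80), while *kif15* passed (1.20, adjusted p = 0.0458). Without wt replicate 2, *kif18a* did not pass (1.19, adjusted p = 0.263 from edgeR) and *kif20bb* did (1.42, 0.0376). Without crispant replicate 1, *kif20a* (0.75, adjusted p = 0.384 from edgeR) and *kif20ba* (0.99, 0.148) were lost, and *kif23* stood at -0.070. Without crispant replicate 2, *kif20ba* (1.08, adjusted p = 0.0854 from edgeR) and *kif18a* (1.29, 0.335) were lost. All these kinesin values but that of *kif23* stayed above 0.

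Mitotic kinases, cyclins and their regulators all had values above 0, but 2 of 10 passed. Both rose, where 8.98% of all genes rose. *ccna2*, cyclin A2, had 4.37 and 4.47 CPM in crispants, against 1.98 and 1.81 CPM in wt, a rise of 1.22 (adjusted p = 0.0180 from edgeR). *plk1*, the Polo kinase that works from centrosome maturation to cytokinesis, had 8.16 and 7.02 CPM in crispants, against 5.25 and 3.78 CPM in wt, a rise of 0.76 (adjusted p = 0.0427 from edgeR). *cdk1*, the kinase that drives mitosis, had 5.98 and 4.22 CPM in crispants, against 1.86 and 3.73 CPM in wt. Its groups did not overlap, but wt replicate 1 lay far below wt replicate 2, and the gene did not pass (0.86, standard error 0.35, adjusted p = 0.0789 from edgeR). *ccnb1*, cyclin B1, had 4.11 and 4.84 CPM in crispants and 2.94 and 2.14 CPM in wt, and did not pass at 0.82 (adjusted p = 0.116 from edgeR). The kinase gene *melk* (0.77), the centriole kinase *plk4* (0.75), *cks1b* (0.70), which binds Cdk1, *aurka* (0.61), the spindle pole kinase, and *ccnb3* (0.51) did not pass either. *ccnb2* was at the limit of detection, with 10 and 14 counts in the crispant libraries and 2 and 17 counts in the wt libraries, and its value of 0.33 was -0.44 without wt replicate 1 and -0.067 without crispant replicate 2.

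In this group too, calls changed when single libraries were left out, and a lost call need not mean a smaller change. Without any 1 library, *ccna2* no longer passed in edgeR (values 1.15 to 1.28, adjusted p = 0.0554 to 0.0907). *plk1* did not pass in edgeR without wt replicate 2 (0.53, adjusted p = 0.324), crispant replicate 1 (0.64, 0.242) or crispant replicate 2 (0.85, 0.0588). The reverse held for *cdk1*, *melk* and *plk4*, which had a low wt replicate 1. It did not hold for *ccnb2* and *ccnb3*, whose wt replicate 1 was also low. Without wt replicate 2, *cdk1* (1.46, adjusted p = 0.0145 from edgeR), *melk* (1.57, 0.0106) and *plk4* (1.31, 0.0402) passed.

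Microtubule-associated proteins of the spindle gave 4 rows that rose, 1 that fell and 3 that did not pass. The shares over all genes tested were 8.98% higher and 7.44% lower. *tpx2*, which activates Aurora A and nucleates microtubules at chromosomes, rose by 0.84 (10.4 and 13.8 CPM in crispants, 5.06 and 8.34 CPM in wt). *nusap1*, a microtubule bundler, rose by 0.91, *aspm*, a spindle pole protein known for human microcephaly, by 0.76, and the *prc1* copy ENSDARG00000100918, of the anaphase bundler, by 1.02. The other *prc1* copy (ENSDARG00000005993, 0.94) and *hmmr* (0.56) did not pass. The gene table does not say which *prc1* copy is a and which is b. In edgeR without wt replicate 1, adjusted p-values were 0.190 for *tpx2*, 0.167 for *nusap1*, 0.162 for that *prc1* copy and 0.234 for *aspm*. Without crispant replicate 2 the call was lost for *tpx2* (adjusted p = 0.120 from edgeR), *nusap1* (0.279) and *prc1* (0.394), without crispant replicate 1 for *aspm* (0.127) and without wt replicate 2 for *prc1* (0.0614). The values of these 4 genes stayed between 0.51 and 1.16 there.

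Stathmin sets its copies apart. Stathmin destabilizes microtubules in dividing cells, and in mammals it is also abundant in developing neurons. The copy ENSDARG00000033655 had 7701 and 6520 counts in the crispant libraries and 8218 and 9752 counts in the wt libraries, far above any other member. At 400 and 405 CPM in crispants, against 526 and 535 CPM in wt, it fell (log2 fold change -0.40, standard error 0.07, adjusted p = 2.35e-06 from edgeR), and this held under all 13 alternatives. The copy ENSDARG00000004169 had 9.36 and 7.95 CPM in crispants, against 4.22 and 6.69 CPM in wt. Its groups did not overlap, but it did not pass (0.66, standard error 0.25, adjusted p = 0.0624 from edgeR). It passed without wt replicate 2 (1.04, adjusted p = 0.0162 from edgeR), with library totals as the only scaling (0.73, 0.0376) and with the replicate number as a block (0.68, 0.0480). The gene table does not give the letters of the copies.

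The chromosomal passenger complex, which corrects faulty attachments, the cytokinesis genes and the anaphase-promoting complex and separase group had no member that passed. Of all genes tested, 16.4% passed in either direction. In the passenger complex, *aurkb*, its kinase, had 3.07 and 4.84 CPM in crispants, against 2.11 and 2.41 CPM in wt (0.79, standard error 0.39, adjusted p = 0.163 from edgeR). Its partners *birc5*, survivin (0.79), and *cdca8*, borealin (0.68), lay at similar values on 14 to 42 counts per library, and all 3 had both crispant libraries above both wt libraries. Of the genes that divide the cell, *racgap1*, of the centralspindlin complex, was at 0.96, *ect2*, the exchange factor it recruits, at 0.76 and *anln*, the ring protein anillin, at 0.53. *anln*, the most abundant of them, had 7.96 and 6.64 CPM in crispants and 5.31 and 4.83 CPM in wt. Each of the 3 also had both crispant libraries on top, as did 28.1% of all genes tested. The median of the cytokinesis genes was 0.76.

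The anaphase-promoting complex and separase group (*cdc20*, *fbxo5*, *espl1* and *ube2c*) had the lowest median of any role, at 0.51. *cdc20*, the activator of the anaphase-promoting complex in mitosis, had 54 and 72 counts in crispants and 64 and 54 counts in wt. The groups overlapped (log2 fold change 0.04, standard error 0.36), and the 95% interval ran from 0.627-fold to 1.69-fold. Its value was -0.18 without wt replicate 2 and -0.33 without crispant replicate 2. *fbxo5*, the Emi1 inhibitor of the complex, overlapped as well (0.36, and -0.060 without crispant replicate 2). *espl1*, separase, which cuts the cohesin ring (0.68), had 4.73 and 3.10 CPM in crispants and 2.05 and 2.85 CPM in wt. *ube2c*, a ubiquitin-conjugating enzyme of the complex (0.65), had 37 and 49 counts in crispants and 25 and 28 counts in wt. Neither passed. Both had both crispant libraries on top, as did 28.1% of all genes tested.

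**Figure D4:**
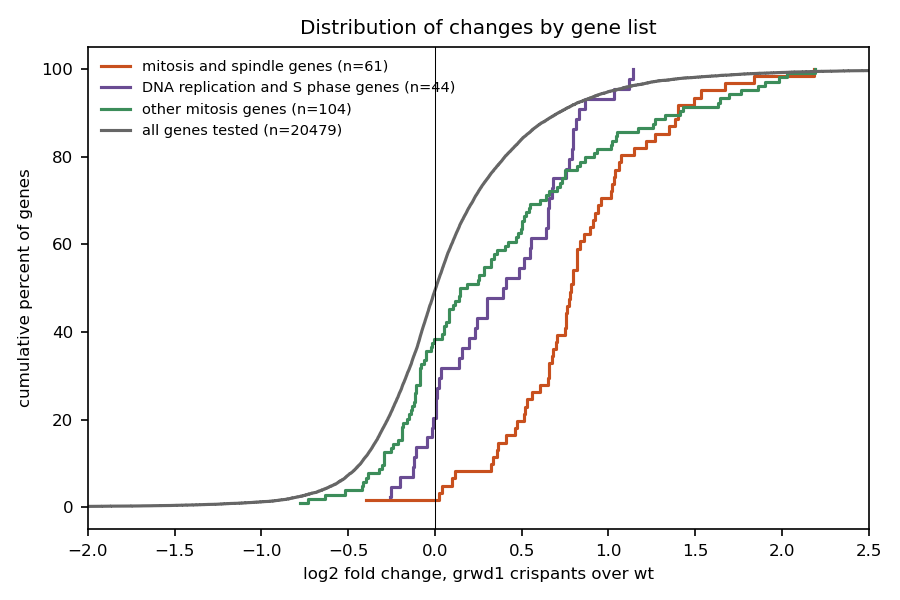
Cumulative percent of genes (vertical axis) at or below each log2 fold change, crispants over wt, for the 61 mitosis and spindle genes, 44 DNA replication and S phase genes, 104 other mitosis genes and all 20479 genes tested (a few genes fall outside the horizontal axis). The list's curve lies right of the others over most of its range, with medians of 0.79, 0.40, 0.17 and 0.0046 in that order.

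Genes of the same pathway outside the list are described by their counts. Of 104 other mitosis genes tested, 11 rose, 1 fell and 92 did not pass, with a median of 0.17. Since 8.98% of all genes rose, this share is near the background. The count of 11 was 9 with no low-count filter and 9 with at least 10 counts in every library. It was also lower when any 1 library was left out, as was the count over all genes. Other kinetochore genes had 3 of 19 higher and a median of 0.75, among them *kntc1*, of the complex that loads checkpoint proteins, at 1.33 (6.92 and 5.71 CPM in crispants, 2.05 and 2.96 CPM in wt). *ska3* (1.98) and *oip5* (2.19) also rose, on 2 and 11 counts of *ska3* and 1 and 8 counts of *oip5* in the wt libraries. Both, and *arhgap11a* below, got through the low-count filter only by their crispant libraries. Other genes of mitotic entry and exit had 3 of 19 higher and a median of 0.50, such as *mastl*, the Greatwall kinase (1.70), *gtse1* (1.64) and *ccnf* (0.54). Spindle, centrosome and cytokinesis genes had 3 of 28 higher and a median of 0.27, namely *numa1* (1.02), *dlgap5* (1.17) and *arhgap11a* (1.86).

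Complexes that also work outside mitosis were listed apart. The subunits of the anaphase-promoting complex, which works in resting cells too, were listed together with its interphase activators *fzr1* and *fzr1b*. These rows had a median of -0.11, with 0 of 16 higher and *fzr1b* lower at -0.30. Their summed level, activators included, was 293 and 299 CPM in crispants and 327 and 317 CPM in wt. Within that sum, *fzr1* held 77.2 and 84.1 CPM in crispants and 87.4 and 87.4 CPM in wt. For *fzr1b* the values were 42.2 and 42.5 CPM in crispants and 56.7 and 47.9 CPM in wt. Cohesin with its regulators and condensin II had 2 of 22 higher, a share near that of all genes, and a median of 0.07. The 2 were *ncapd3*, of condensin II (1.63; 8.06 and 9.25 CPM in crispants, 2.94 and 2.63 CPM in wt), and *sgo1*, shugoshin, which guards cohesin in mitosis (2.03; 2.60 and 4.04 CPM in crispants, 0.960 and 0.658 CPM in wt). Both work in mitosis, and cohesin rings hold DNA through much of the cell cycle. Whether this bears on their changes was not tested.

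Genes of DNA replication and S phase, the step before mitosis, had 7 of 44 higher and 0 lower, with a median of 0.40 and 35 of 44 above 0. Of all genes tested, 8.98% rose, 7.44% fell and 50.5% lay above 0. Their summed level was 418 and 436 CPM in crispants, against 365 and 378 CPM in wt. *uhrf1*, which maintains DNA methylation after replication, rose by 0.79, *pola1*, of the primase polymerase, by 0.80 and *mcm6*, of the replicative helicase, by 0.65 (another row with its symbol was too low to test). *pcna*, the polymerase clamp, had 33.3 and 32.0 CPM in crispants and 23.3 and 29.7 CPM in wt, and did not pass at 0.30 (adjusted p = 0.106 from edgeR). The count of 7 was 2 with DESeq2. It was also lower when any single library was left out, as was the count over all genes. DESeq2 called 5.79% of all genes higher, beside its count of 2 here. Of the G1 cyclins, *ccnd1* stood at 0.10 with overlapping libraries and did not pass.

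Of 21 regulators of the cell cycle tested, 5 rose, 1 fell and 15 did not pass, where 8.98% of all genes rose and 7.44% fell. *mybl2*, which encodes B-Myb, the activator that works with FoxM1, rose by 1.09 (4.63 and 4.35 CPM in crispants, 2.30 and 1.92 CPM in wt). *cdkn1a*, which encodes p21, rose by 0.51, with 62.3 and 65.4 CPM in crispants, against 44.5 and 45.3 CPM in wt. *mdm2*, which encodes a ubiquitin ligase, rose by 0.67 and *ccng1*, cyclin G1, by 0.85. A *cdkn1b* copy (ENSDARG00000054271), of the inhibitor p27, was lower at -0.24.

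**Figure D5:**
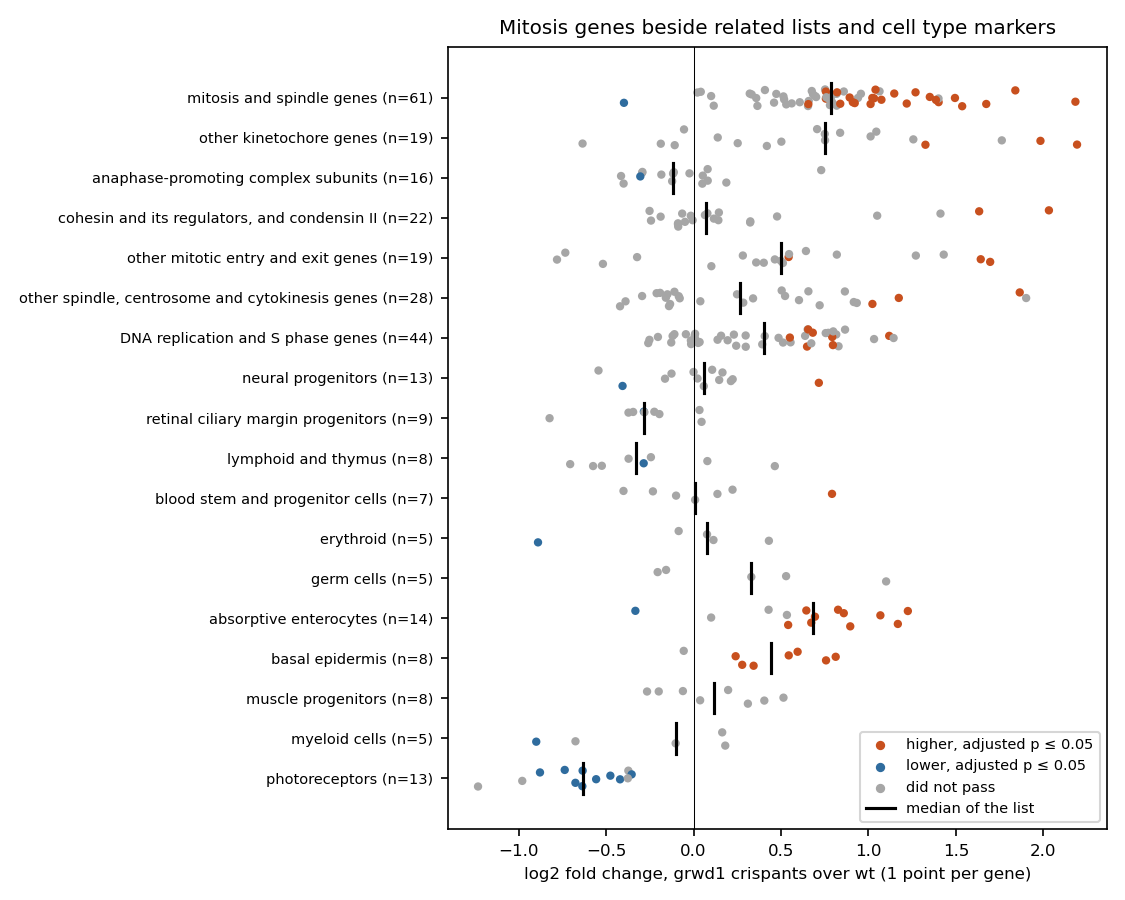
Log2 fold change of single genes (points), crispants over wt, in the mitosis and spindle list, in 6 lists of related genes and in 11 lists of cell type markers; black bars are medians. The medians of the marker lists run from -0.63 for photoreceptors to 0.68 for absorptive enterocytes, with the mitosis list at 0.79.

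Markers of tissues moved in these whole-larva libraries as well, where 8.98% of all genes rose and 7.44% fell. Absorptive enterocyte markers had 10 of 14 higher and 1 lower, with a median of 0.68 and a sum of 2409 and 2510 CPM in crispants, against 1649 and 1692 CPM in wt. Epidermis markers had 7 of 8 higher, with a median of 0.44 and a sum of 7507 and 7983 CPM in crispants, against 6244 and 6094 CPM in wt. This list is named for the basal epidermis but is not limited to it. Photoreceptor markers had 9 of 13 lower and 0 higher, with a median of -0.63 and a sum of 1394 and 1472 CPM in crispants, against 2190 and 2089 CPM in wt. No matched marker of these 3 lists was at 0 in all libraries. The part of these tissues in the change of the mitosis list was not tested.

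In the marker lists of other populations, 0 or 1 gene rose and 0 or 1 fell per list, where 8.98% of all genes rose and 7.44% fell. Neural progenitors had a median of 0.06 with 1 of 13 higher and 1 lower, and retinal margin progenitors a median of -0.28 with 0 of 9 higher and 1 lower. Lymphoid and thymus markers had a median of -0.33 with 0 of 8 higher and 1 lower, and blood stem and progenitor markers 0.0089 with 1 of 7 higher. Muscle progenitor markers had a median of 0.12, germ cell markers 0.33, erythroid markers 0.08 and myeloid markers -0.10, and none of these 4 lists held a gene that rose, while 1 of 5 erythroid and 1 of 5 myeloid markers fell. Muscle progenitor markers, for example, summed to 52.5 and 49.6 CPM in crispants and 49.3 and 50.7 CPM in wt. Oocyte and maternal transcripts were too scarce to test, with sums of 1.87 and 0.931 CPM in crispants and 0.896 and 2.14 CPM in wt.

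The list's count of higher genes varied with the test and with single libraries, while its direction did not. DESeq2, the tool of the study, called 13 of 59 members higher and 1 lower, where it called 5.79% of all genes higher and 5.29% lower. The other 11 were *ccna2*, *plk1*, *mad2l1*, *kif20a*, *kif20ba*, *kif18a*, *tpx2*, *nusap1*, *aspm*, *smc4* and the *prc1* copy, with adjusted p-values from DESeq2 of 0.0570 to 0.169. The count of members that rose was lower when any 1 library was left out, as was the count of all genes that rose. That leaves 1 library in its group, so a lost call need not mean a smaller change. Of the members that rose, 10 passed under all 13 alternatives: *mki67*, *bub1*, *cenpf*, *knl1*, *nuf2*, *kif11*, *kifc1*, *top2a*, *ncapg* and *smc2*. The median of the list lay between 0.75 and 0.94 when each library was left out in turn, and 55 to 59 of the 61 rows stayed above 0.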

How the data were processed

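The deposited values are raw counts per gene, which the authors made with featureCounts from trimmed reads that HISAT2 had placed on GRCz11. The annotation version, strandedness of counting and handling of multi-mapped reads were not given in the sources used here. Near-identical copies, overlapping and antisense genes are therefore uncertain. Exactly repeated lines (147 of 32667) were dropped. A name table gave symbols for 29201 of 32520 gene IDs. Groups and replicates came from the sample labels.

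Counts were filtered with filterByExpr, scaled with TMM and tested with edgeR 4.0.16 (glmQLFit, glmQLFTest) in R 4.3.3, in 1 fit of all 4 libraries with a term for group. P-values were adjusted by the Benjamini-Hochberg method over every tested gene. The standard error is the log2 fold change divided by the square root of F, and 95% intervals use the t distribution with edgeR's total degrees of freedom. The tests were checked on simulated counts.

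The members and lists were chosen with earlier results of these data known. Genes named are *grwd1*, every member that passed or could not be tested, the most abundant member of each role, *mki67*, *cdk1*, *ccnb1*, *ccnb2*, *plk1*, *aurka*, *aurkb*, *top2a*, *foxm1* and *cdc20*, from each related list at most 3 genes in each direction with the smallest p, and *pcna*, *ccnd1*, *cdkn1a*, *mdm2* and *ccng1*. The other members and *mybl2* were named after their values were seen, to account for the whole list and for a regulator that rose. Of the list of regulators, 1 item is not reported here. Alternatives were DESeq2 1.42.0, limma-voom (limma 3.58.1), RLE factors, no composition factors, TMM factors from which the 50 most abundant genes were left out, no low-count filter, a minimum of 10 counts per library, an adjusted p of 0.01, a replicate block, and leaving out each library in turn.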

Additional observations from a re-analysis of the deposited data

How the results depend on the processing

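Of 20479 genes tested, 1839 rose and 1524 fell. With DESeq2, 1105 genes were higher and 1009 lower, with 13 members, 6 other mitosis genes and 2 S phase genes higher, 0 other mitosis genes lower, and a median of 0.24 for the other mitosis genes. At an adjusted p of 0.01, 1193 genes were higher and 938 lower, with 15 members, 6 other mitosis genes and 2 S phase genes higher and 0 other mitosis genes lower. With library totals alone, the median of all genes was 0.08, against 0.0046 with TMM factors, and there were 2355 genes higher and 1005 lower, 0 other mitosis genes lower, and medians of 0.86 for the members, 0.24 for other mitosis genes and 0.47 for S phase genes. The median of other mitosis genes was 0.25 with no low-count filter and 0.0903 with at least 10 counts in every library, where other genes were tested. Without each library in turn, 935 to 1327 genes were lower, and 15 to 22 members, 6 to 8 other mitosis genes and 2 to 6 S phase genes were higher, with 0 to 2 other mitosis genes lower. The count of all genes that rose was also below 1839 in each of these fits. Each such fit leaves 1 library in a group, so these counts do not show whether a list differs from all genes. Medians without each library in turn were 0.75 to 0.94 for the members and 0.31 to 0.46 for S phase genes.

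Values of single members turned below 0 only where a library was left out. Without wt replicate 1 this was *ccnb2* (-0.44). Without wt replicate 2 it was *bub1ba* (-0.52), *bub3* (-0.098) and *cdc20* (-0.18). Without crispant replicate 1 it was *bub1ba* (-0.18) and *kif23* (-0.070). Without crispant replicate 2 it was *foxm1* (-0.19), *ccnb2* (-0.067), *bub3* (-0.13), *cdc20* (-0.33) and *fbxo5* (-0.060). Their highest values without 1 library were 2.36 for *ccnb2*, 1.14 for *bub1ba*, 0.83 for *kif23*, 0.69 for *fbxo5*, 0.37 for *foxm1*, 0.35 for *cdc20* and 0.16 for *bub3*, and none of the 7 passed in any case. The labels give replicate numbers and state no pairing of the libraries. The deviations of same-numbered libraries had a correlation of -0.00665 across genes, which does not settle whether they were handled together. With the replicate block, 25 members were higher, 24 of them as before, and 1809 genes in all were higher.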
